A study of Homo sapiens with 2 samples.

Results

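GSK_LSD1_2HCl, here called GSK-LSD1, and SP2509 are inhibitors of the histone demethylase LSD1, and both were among the compounds given to K562 cells for 6 h. They were found by name in the deposited annotation of the wells, which lists 1 well for each compound on each of 2 plates. The account therefore rests on 4 of 192 wells, or 2 of 74 compounds. K562 is an established human line from a chronic myeloid leukaemia and has an erythroid character. Its polyadenylated RNA was counted well by well with MAC-seq, a method in which reverse transcription barcodes each well of a plate and the 3′ ends of the pooled cDNA are sequenced.

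The main control was a reference of 16 wells that held, in 2 wells each, EtOH (a solvent), Ofloxacin (an antibacterial), Pinometostat and SGC_0946 (DOT1L inhibitors), EPZ015666 and GSK591 (PRMT5 inhibitors), EED226 (an inhibitor of the EED subunit of PRC2) and GSK126 (an EZH2 inhibitor). DMSO, the vehicle, filled 24 wells. A further set of controls was chosen after the data had been seen, because neither compound shared a plate column with any reference well. With the well numbers read along rows of 12, both compounds lay in the second well of a row, and the further set was the 12 wells of the 6 other compounds in that place: GSK_J1, GSK_J4_HCl, JIB_04 and ML324, which inhibit other histone demethylases, and BRD4770 and UNC0631, which inhibit the methyltransferase G9a. These are called the second-well compounds. All wells held K562 cells treated for 6 h, and the labels give no dose for any compound. The duplicates of a compound carried the same well number and the same barcode on both plates and are technical by the series description. All p-values measure the spread between wells of 1 experiment.

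LSD1, encoded by KDM1A, is a flavin-dependent enzyme that removes mono- and dimethyl marks from histone H3 lysine 4. It works in a complex with the scaffold CoREST (RCOR1) and the deacetylases HDAC1 and HDAC2. In blood cells the repressors GFI1 and GFI1B bring this complex to DNA through their SNAG domain, a short N-terminal stretch that resembles the histone H3 tail and occupies the active site of LSD1. GFI1B is needed for erythroid and megakaryocytic development and is known to repress its own gene. GSK-LSD1 inactivates LSD1 irreversibly by reacting with its flavin cofactor, and SP2509 has been described as a reversible inhibitor.

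The promoters of genes that the results turn on are shown first, because the zinc fingers of the GFI1 family recognise DNA with the core AATC. Each sequence is the 250 bases before a gene start in RefSeq, assembly GRCh38.p14, written 5′ to 3′ on the strand of the gene, and capitals mark AATC and its reverse complement GATT. GFI1B has 2 such starts in the table. RNASE1 also has 2, and the one with more matches is printed.
GFI1B, start 1, chr9:132945281-132945530, plus strand: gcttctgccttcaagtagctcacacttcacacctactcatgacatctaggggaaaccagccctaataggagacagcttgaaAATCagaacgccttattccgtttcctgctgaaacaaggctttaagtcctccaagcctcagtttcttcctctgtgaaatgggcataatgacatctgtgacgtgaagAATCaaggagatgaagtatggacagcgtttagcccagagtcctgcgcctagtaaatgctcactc
GFI1B, start 2, chr9:132978444-132978693, plus strand: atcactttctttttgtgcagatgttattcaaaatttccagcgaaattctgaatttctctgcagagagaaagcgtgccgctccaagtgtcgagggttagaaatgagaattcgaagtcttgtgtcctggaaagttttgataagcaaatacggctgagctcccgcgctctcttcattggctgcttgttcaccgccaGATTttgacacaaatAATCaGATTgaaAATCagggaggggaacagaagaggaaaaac
PI16, chr6:36948046-36948295, plus strand: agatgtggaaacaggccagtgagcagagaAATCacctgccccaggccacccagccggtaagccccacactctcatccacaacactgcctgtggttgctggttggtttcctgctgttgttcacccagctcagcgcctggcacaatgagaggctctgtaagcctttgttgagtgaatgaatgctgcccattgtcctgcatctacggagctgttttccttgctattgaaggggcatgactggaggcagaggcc
VIM, chr10:17227991-17228240, plus strand: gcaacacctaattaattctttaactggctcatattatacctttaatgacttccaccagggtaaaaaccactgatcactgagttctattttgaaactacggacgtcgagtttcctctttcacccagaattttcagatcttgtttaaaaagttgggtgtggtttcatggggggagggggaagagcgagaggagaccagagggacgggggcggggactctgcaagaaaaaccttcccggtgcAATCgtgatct
RNASE1, start 2, chr14:20802845-20803094, minus strand: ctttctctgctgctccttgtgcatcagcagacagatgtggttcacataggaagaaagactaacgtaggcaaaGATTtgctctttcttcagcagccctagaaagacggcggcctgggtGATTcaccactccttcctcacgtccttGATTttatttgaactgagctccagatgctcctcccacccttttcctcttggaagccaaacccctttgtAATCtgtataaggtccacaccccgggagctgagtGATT
KLF1, chr19:12887202-12887451, minus strand: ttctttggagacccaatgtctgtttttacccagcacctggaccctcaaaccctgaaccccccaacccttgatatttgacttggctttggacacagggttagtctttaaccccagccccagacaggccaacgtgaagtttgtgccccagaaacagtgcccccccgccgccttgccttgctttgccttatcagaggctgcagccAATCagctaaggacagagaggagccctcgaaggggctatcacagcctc
The start 2 window of GFI1B held 4 matches, all of them in its last part before the start, and 7.15% of all 35114 promoter windows of this length held at least as many. Its start 1 window held 2, a number reached by 35.1% of windows. RNASE1 had 5 at start 2 (2.66%) and 2 at start 1 (35.1%). These shares are over single windows, and a gene with 2 starts has 2 windows. Those of PI16, VIM and KLF1 held 1 each, as did or exceeded 64.8% of all windows, and that of HHEX held 0. The longer form AAATCA or its reverse complement TGATTT, which contains the core, was in both GFI1B windows, in those of PI16 and RNASE1, and in 11.6% of all windows. A match describes letters and not a bound site. No binding or histone mark was measured in these wells.

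GFI1B mRNA was about 3-fold higher with GSK-LSD1 than in the reference, and its level with SP2509 lay in the reference range. GFI1B encodes the repressor that recruits LSD1 in this lineage. Its level was 215 and 229 counts per 1000000 counts (CPM) in the GSK-LSD1 wells of plates 1 and 2, and 61.9 and 68.7 CPM in the SP2509 wells. The reference wells ran from 56.3 to 87.9 CPM (median 71.4), the second-well compounds from 50.3 to 103 CPM (median 69.9) and DMSO from 34.9 to 64.2 CPM (median 49.4). Both GSK-LSD1 wells lay above all other 190 wells of the series, whose highest value was 102.76 CPM in a BRD4770 well, and both SP2509 wells lay inside the reference range. The log2 fold change of GSK-LSD1 was 1.64 ± 0.12 (SE, n = 2 against 16 wells) against the reference, 1.65 ± 0.13 against the second-well compounds and 2.168 ± 0.118 against DMSO. The adjusted p values were 5.84e-27, 7.55e-24 and 2.91e-38 (edgeR quasi-likelihood test with Benjamini-Hochberg adjustment over 10312 genes, used for every adjusted p here, with a threshold of 0.05). For SP2509 the log2 fold change was -0.12 ± 0.18 against the reference (adjusted p = 0.82).

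**Figure D1:**
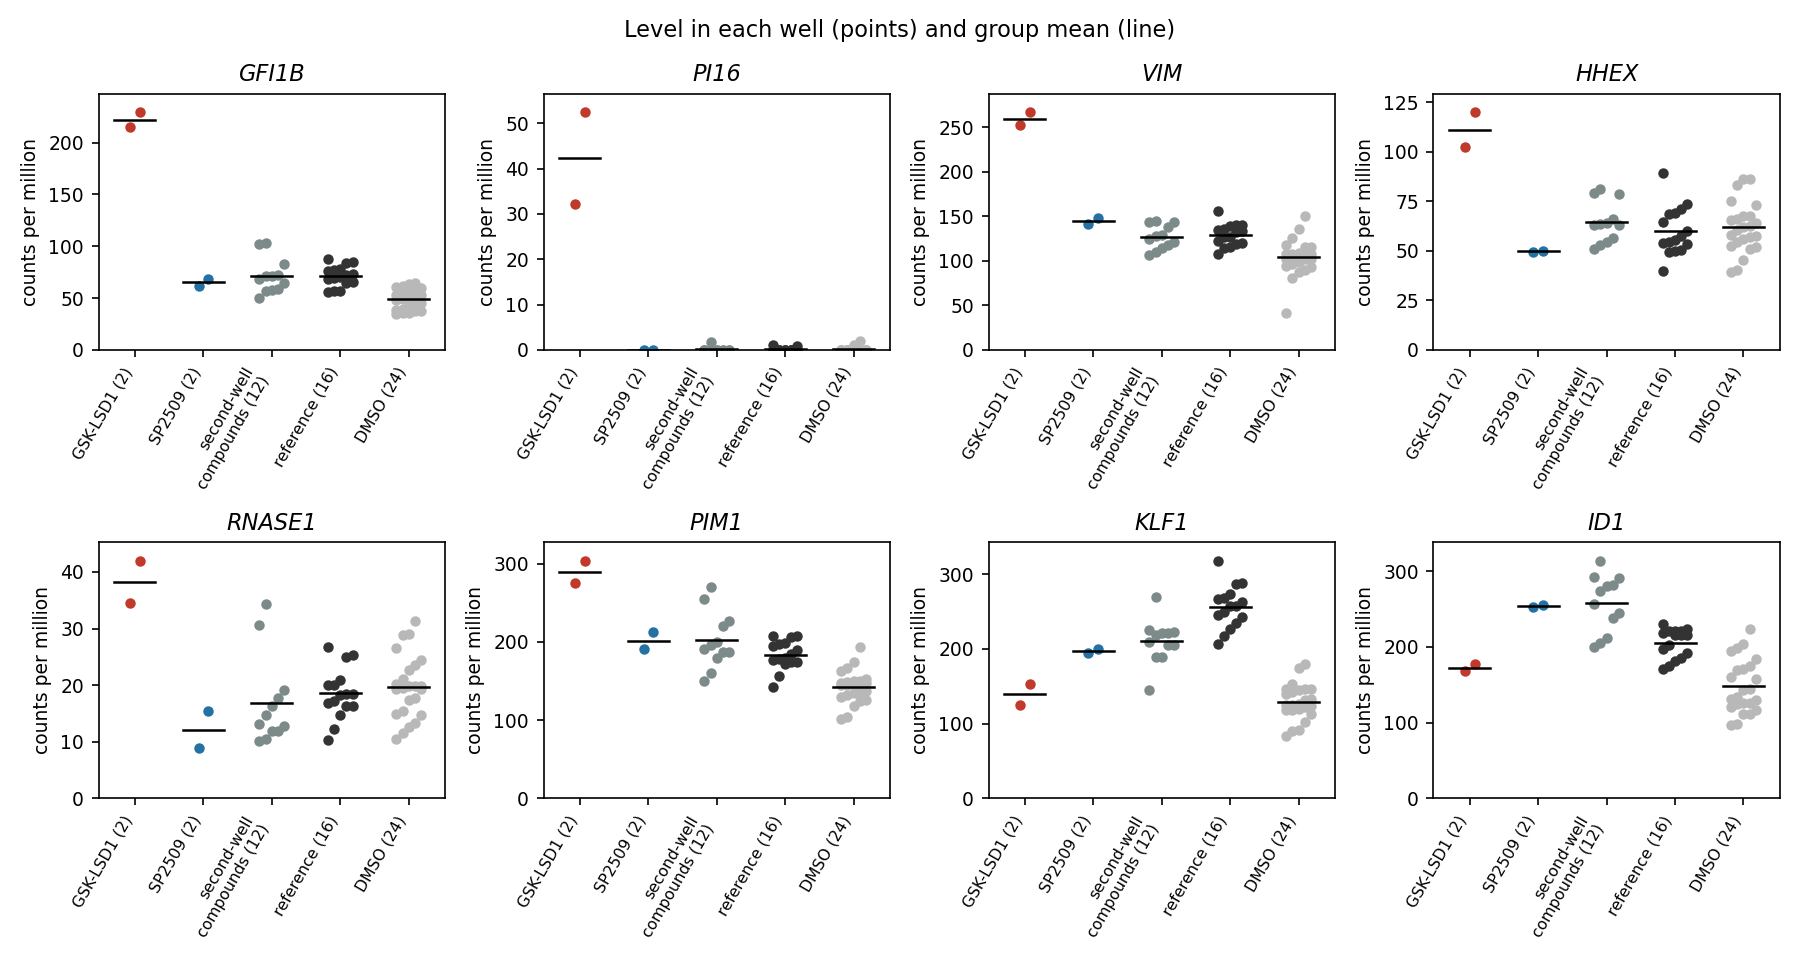
Level of 8 genes in CPM (vertical axes, linear and starting at 0) in each well of GSK-LSD1 (2 wells), SP2509 (2), the second-well compounds (12), the reference (16) and DMSO (24). Points are wells and lines are group means; the GSK-LSD1 wells stand above all other wells shown for GFI1B, PI16, VIM, HHEX, PIM1 and RNASE1.

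PI16, which encodes a secreted peptidase inhibitor, went from near silence to a clear signal under GSK-LSD1. The 2 wells held 63 counts between them, or 32.2 and 52.4 CPM. SP2509 had 0 counts in both wells, the reference 2 counts over 16 wells, and all 190 wells without GSK-LSD1 held 16 counts in sum. No well other than those of GSK-LSD1 exceeded 2.33 CPM. The pooled ratio of GSK-LSD1 to the other 190 wells was 358 (95% interval 204 to 664, covering counting error only), and that to the reference was 284 (75.3 to 2392.5). PI16 was at least 15.7-fold lower in SP2509 than in GSK-LSD1, with SP2509 set at a floor of 3 counts over both wells. PI16 passed the filter on low counts only through the GSK-LSD1 wells (28 and 35 counts), so its p against the controls or against SP2509 is not given as support. It lies below the level required by the rule for named genes and was picked after its values were seen.

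VIM, the gene of the intermediate filament protein vimentin, was about 2-fold higher. The GSK-LSD1 wells had 253 and 266 CPM and the SP2509 wells 149 and 141 CPM. Reference wells ran from 108 to 156 CPM (median 130), and no well outside GSK-LSD1 passed 170.1 CPM. The log2 fold change of GSK-LSD1 was 1.01 ± 0.11 against the reference (adjusted p = 4.14e-13) and 1.03 ± 0.12 against the second-well compounds (adjusted p = 4.02e-12). HHEX, a homeobox repressor of blood progenitors, had 102 and 120 CPM with GSK-LSD1 and 49.5 and 49.8 CPM with SP2509. Its reference wells reached from 39.9 to 89.5 CPM (median 56.3), so the GSK-LSD1 wells lay above them and the SP2509 wells within. The log2 fold change was 0.87 ± 0.16 against the reference (adjusted p = 5.3e-05) and 0.77 ± 0.17 against the second-well compounds (adjusted p = 0.00607). HHEX was less separate than GFI1B and VIM, since 6 of the other 190 wells exceeded the lower GSK-LSD1 well.

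PIM1, a STAT5-regulated survival kinase, had 303 and 275 CPM with GSK-LSD1, 212 and 191 CPM with SP2509 and 142 to 208 CPM (median 182) in the reference. Its log2 fold change under GSK-LSD1 was 0.66 ± 0.11 against the reference (adjusted p = 2.19e-05) and 0.54 ± 0.12 against the second-well compounds (adjusted p = 0.00805). PKM, which encodes the glycolytic pyruvate kinase, had 438 and 511 CPM with GSK-LSD1 against 233 to 391 CPM (median 324) in the reference, a log2 fold change of 0.59 ± 0.09 (adjusted p = 3.32e-06). RNASE1, a secreted ribonuclease, had 34.5 and 41.9 CPM with GSK-LSD1, 8.85 and 15.5 CPM with SP2509 and 10.3 to 26.7 CPM (median 18.3) in the reference. Its log2 fold change was 1.06 ± 0.22 against the reference (adjusted p = 0.000857) and 1.18 ± 0.24 against the second-well compounds (adjusted p = 0.00228). The GSK-LSD1 wells lay above all reference wells for these 3 genes, as they did for 269 of all genes tested (2.61%). Other controls came closer: PIM1 reached 269.95 CPM in a JIB_04 well and RNASE1 34.25 CPM in an ML324 well. PKM reached 462 CPM in a DMSO well, above the GSK-LSD1 well of plate 1. PKM also rose against the second-well compounds, by 0.54 ± 0.10 (adjusted p = 0.000306). RNASE1 was picked after its values were seen, as it falls below the level set by the rule.

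KLF1, the transcription factor that activates adult erythroid genes, fell under GSK-LSD1 against 2 of the 3 controls. The GSK-LSD1 wells had 125 and 153 CPM and the SP2509 wells 195 and 199 CPM. Reference wells had 207 to 318 CPM (median 257), the second-well compounds 146 to 269 CPM (median 214) and DMSO 83.2 to 179 CPM (median 126). The GSK-LSD1 wells lay below every reference well, overlapped the lowest second-well value and lay inside the DMSO range. Of all genes tested, 222 (2.15%) lay below every reference well with GSK-LSD1. The log2 fold change was -0.89 ± 0.12 against the reference (adjusted p = 2.81e-08), -0.59 ± 0.13 against the second-well compounds (adjusted p = 0.00607) and 0.06 ± 0.13 against DMSO (adjusted p = 0.899). The DMSO wells as a group differed from the reference in 1038 of 10312 genes (10.1%), and 8 of the 24 lay in the first well of a row. Their part in the KLF1 result was not tested. With SP2509 KLF1 had a log2 fold change of -0.38 ± 0.12 against the reference (adjusted p = 0.0756).

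In total, 165 of 10312 genes (1.6%) passed the threshold for GSK-LSD1 against the reference, 120 higher (1.16%) and 45 lower (0.436%). For SP2509 there were 208 (2.02%), 105 higher and 103 lower. Against DMSO the numbers were 180 (1.75%) for GSK-LSD1, 142 higher and 38 lower, and 238 (2.31%) for SP2509, 152 higher and 86 lower. Without its plate 1 or plate 2 well, GSK-LSD1 had 35 and 33 calls against the reference, and SP2509 had 0 and 0. Other compounds in the same place of a row also differed from the reference. The 6 second-well compounds as a group differed from the same reference in 2098 genes (20.3%), 959 higher and 1139 lower, and each of them singly in 46 to 335. Of 64 other treatments, 24 had more calls than either compound. Single compounds of the reference differed from the other 7 in 0 to 22 genes. Depth moved along the row too: the median well held 265248 counts in the first place, 489907.5 in the second, 624715.5 in the third and 943968 in the fourth. The part of well position, depth or barcode in the calls against the reference was not tested beyond the comparison with the second-well compounds.

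Against the second-well compounds GSK-LSD1 changed 20 genes (0.194%), 16 higher (0.155%) and 4 lower (0.0388%), and SP2509 changed 0 (0%). For SP2509, 486 genes had an unadjusted p under 0.05 in edgeR, limma-voom called 0 and DESeq2 called 1, and the smallest adjusted p of edgeR was 0.226. For GSK-LSD1, limma-voom called 19 genes and DESeq2 called 3, GFI1B and VIM among them. The median half-width of the 95% intervals was 0.62 for GSK-LSD1 and 0.69 for SP2509 on the log2 scale. These intervals are not adjusted for the number of genes, so for a typical gene even a larger change could miss the threshold. Without the GSK-LSD1 well of plate 1 or plate 2, the log2 fold change of GFI1B was 1.66 or 1.64 and that of VIM 1.12 or 0.95. Each of the 20 genes other than GFI1B, VIM and PI16 lost its call in at least 1 of these cases. PI16 is not counted here, because it entered the test through the GSK-LSD1 wells alone. Of the 165 genes called for GSK-LSD1 against the reference, 15 were called again with the second-well control. Their median absolute log2 fold change went from 0.57 to 0.29. Of the 208 of SP2509, 0 were called again, and their median went from 0.64 to 0.18.

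**Figure D2:**
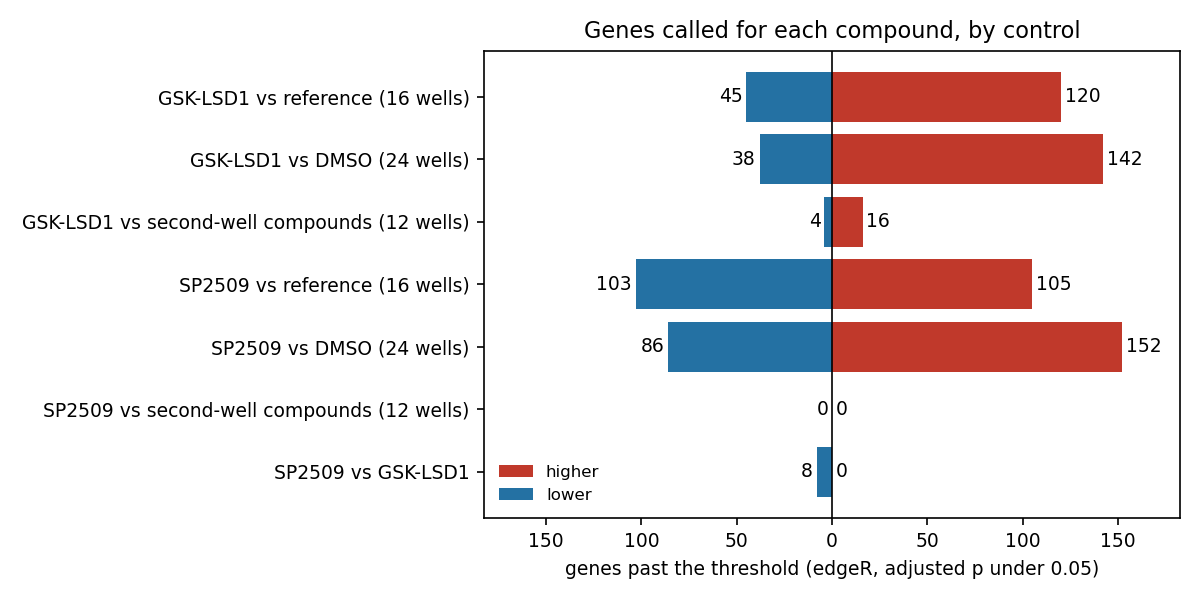
Number of genes past the threshold (horizontal axis, higher to the right and lower to the left) for each compound against the reference, DMSO and the second-well compounds, and for SP2509 against GSK-LSD1. GSK-LSD1 has 16 higher and 4 lower genes against the second-well compounds, and SP2509 has 0.

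**Figure D3:**
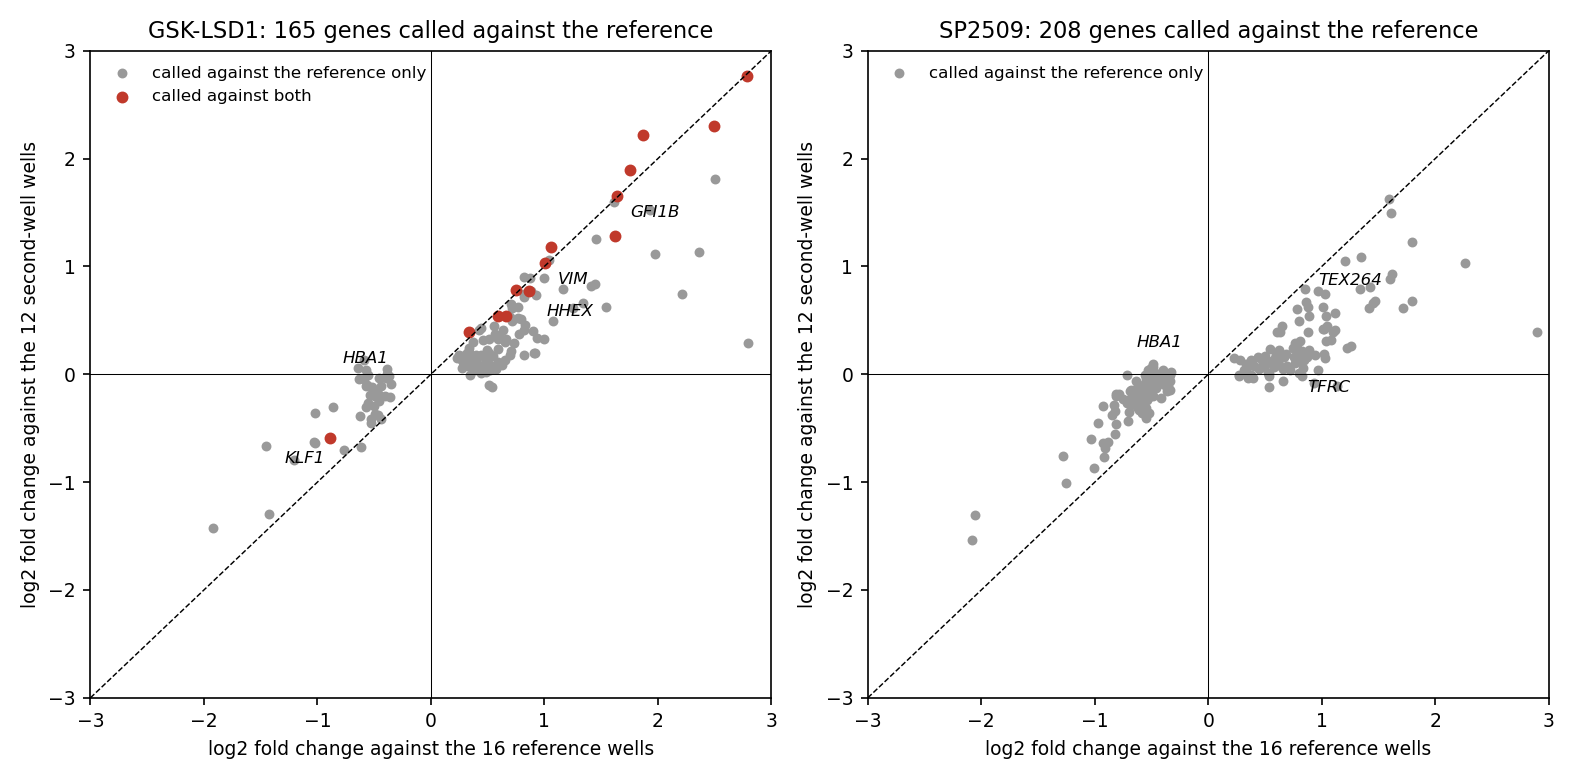
Log2 fold change against the reference (horizontal) and against the second-well compounds (vertical) for the 165 genes called for GSK-LSD1 and the 208 called for SP2509 against the reference. Each point is a gene, red where both controls gave a call; 2 and 3 points lie outside the axis limits of 3, and most grey points lie nearer to 0 on the vertical axis than on the horizontal one.

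The 20 genes of GSK-LSD1 include those described above, GFI1B, PI16, VIM, HHEX, PIM1, PKM and RNASE1 among the higher and KLF1 among the lower. The others were picked after their values were seen, and most are of low level. SPI1 encodes PU.1, the master regulator of myeloid and B cells, and is a known target of GFI1-family repression. It had 31.0 and 29.9 CPM with GSK-LSD1, 8.85 and 8.59 CPM with SP2509, 4.45 to 27.3 CPM (median 12.5) with the second-well compounds and 9.37 to 25.7 CPM (median 17.5) in the reference. Both GSK-LSD1 wells lay above these controls, and 2.61% of all genes lay above all 16 reference wells with GSK-LSD1. Both SP2509 wells, with 5 counts each, lay below all reference wells. How many of all genes lay so with SP2509 was not counted. The log2 fold change of GSK-LSD1 was 1.32 ± 0.30 against the second-well compounds (adjusted p = 0.00845) and 0.79 ± 0.26 against the reference, which missed the threshold (adjusted p = 0.0994). APOC1, an apolipoprotein gene, had 638 and 540 CPM with GSK-LSD1 against 343 to 545 CPM (median 452) with the second-well compounds, a log2 fold change of 0.40 ± 0.09 (adjusted p = 0.00607), with the lower GSK-LSD1 well just inside the second-well range.

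Several low genes rose by more, and a gene this low can pass the filter through the wells where it is high. For TMEM243, RPP25, SLC27A2 and SPTAN1 the adjusted p is therefore left out, and their calls are not given as support. TMEM243 had 16.09 and 20.96 CPM with GSK-LSD1 and 0 to 12.8 CPM (median 2.30) with the second-well compounds (log2 fold change 2.77 ± 0.48). RPP25, a subunit of ribonuclease P, had 42.5 and 28.4 CPM against 0 to 20.6 CPM (1.89 ± 0.31). SLC27A2, a fatty acid transporter and acyl-CoA synthetase, had 18.4 and 22.5 CPM against 0 to 11.1 CPM (2.22 ± 0.40). For each of these 3 genes both GSK-LSD1 wells lay above all 12 second-well wells and all 16 reference wells. Of all genes tested, 2.61% lay above all 16 reference wells with GSK-LSD1. SAT2, SPTAN1 (a spectrin of the membrane skeleton) and SELENOT (a selenoprotein of the endoplasmic reticulum) also rose, by 1.28 ± 0.30, 2.30 ± 0.55 and 0.78 ± 0.18. The adjusted p was 0.0173 for SAT2 and 0.014 for SELENOT. The remaining higher gene, ENSG00000270966, has no symbol in the table used.

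The lower genes besides KLF1 were ID1, EGFL7 and B4GALNT4. ID1, which blocks helix-loop-helix factors, had 177 and 168 CPM with GSK-LSD1, 255 and 252 CPM with SP2509 and 200 to 313 CPM (median 265) with the second-well compounds, a log2 fold change of -0.56 ± 0.14 for GSK-LSD1 (adjusted p = 0.0241). EGFL7, a secreted protein whose gene hosts miR-126, had 177 and 235 CPM against 238 to 355 CPM (-0.63 ± 0.14, adjusted p = 0.00845). B4GALNT4, a glycosyltransferase, had 2.30 and 4.49 CPM against 17.0 to 31.5 CPM (-2.77 ± 0.55, adjusted p = 0.00168). For these 3 genes both GSK-LSD1 wells lay below all second-well wells. The share of all genes for which this holds was not counted. In the reference ID1 ran from 170 to 230 CPM and EGFL7 from 179 to 236 CPM, which overlaps GSK-LSD1, and B4GALNT4 from 5.205 to 21.1 CPM, which does not. Their log2 fold changes against the reference were -0.24, -0.08 and -1.89 (adjusted p = 0.441, 0.876 and 0.0864).

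Higher genes that the rule also named for GSK-LSD1 against the reference had smaller values against the second-well compounds. VMP1, an autophagy membrane protein, had 276 and 301 CPM against 124 to 205 CPM in the reference and 143 to 358 CPM with the second-well compounds, with log2 fold changes of 0.83 ± 0.13 (adjusted p = 3.11e-06) and 0.46 ± 0.14 (adjusted p = 0.176). PDRG1 had 0.79 and 0.52, and EZR, which links membrane and actin, 0.77 and 0.63 (adjusted p = 0.0861 and 0.148 against the second-well compounds). SHISA5, AP1S1, COMMD7 and MTCH1 had 0.99, 0.77, 0.77 and 0.82 against the reference and 0.33, 0.37, 0.52 and 0.18 against the second-well compounds, where none passed. MTCH1, a protein of the outer mitochondrial membrane, had 272 and 270 CPM with GSK-LSD1, 276 and 273 CPM with SP2509, 210 to 257 CPM with the second-well compounds and 126 to 181 CPM in the reference. All wells in this place lay above all reference wells. The share of all genes for which this holds was not counted, and 20.3% of genes were called between the second-well compounds and the reference.

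Of the lower genes named by the rule, some kept a similar size with both controls and others did not. TARDBP, an RNA-binding protein gene, had 48.3 and 34.4 CPM with GSK-LSD1 against 52.3 to 91.6 CPM in the reference, and log2 fold changes of -0.76 ± 0.17 (adjusted p = 0.00227) and, against the second-well compounds, -0.70 ± 0.18 (adjusted p = 0.0609). PLCD1 had -0.62 and -0.68, PHLDA2 -1.02 and -0.64, and CKS1BP3, a pseudogene copy whose reads can be shared with its parent, -1.03 and -0.63. None of these passed against the second-well compounds. KLHL7, STT3A and SQSTM1 had -1.02, -0.86 and -0.62 against the reference and -0.36, -0.30 and -0.39 against the second-well compounds. APRT, an enzyme of purine salvage, had 554 and 594 CPM with GSK-LSD1, 563 and 532 CPM with SP2509, 498 to 614 CPM with the second-well compounds and 841 to 938 CPM in the reference. As for MTCH1, all second-well wells, those of GSK-LSD1 and SP2509 included, lay on 1 side of the reference. How many of all genes do so was not counted. The part of place, depth and barcode in this was not tested.

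SP2509 gave calls against the reference that were not seen against the second-well compounds. TEX264, a receptor for autophagy of the endoplasmic reticulum, had 119 and 117 CPM with SP2509, 87.4 and 98.8 CPM with GSK-LSD1, 62.9 to 92.0 CPM (median 70.2) with the second-well compounds and 53.5 to 75.3 CPM (median 66.2) in the reference. The SP2509 wells lay above all of these. The log2 fold change was 0.86 ± 0.15 against the reference (adjusted p = 0.000363) and 0.67 ± 0.15 against the second-well compounds (adjusted p = 0.226). GLRX2, a mitochondrial glutaredoxin, had 60.1 and 41.2 CPM with SP2509, 78.8 to 111 CPM (median 92.9) with the second-well compounds and 87.7 to 117 CPM (median 104) in the reference. The SP2509 wells lay below all of these, with -1.01 ± 0.20 against the reference (adjusted p = 0.00179) and -0.86 ± 0.21 against the second-well compounds (adjusted p = 0.333). TEX264 and GLRX2 thus moved by a similar size with both controls, and passed the threshold with 1 of them. How many of all genes set both SP2509 wells apart in this way was not counted.

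Other genes that the rule named for SP2509 are given with both controls. Among the higher ones, TUBGCP6 (a subunit of the tubulin ring complex) had 1.26 against the reference and 0.26 against the second-well compounds, PPP1R16A 1.03 and 0.31, RPRD1A (which binds the tail of RNA polymerase II) 1.02 and 0.19, DMAP1 1.01 and 0.42, METTL17 (a mitochondrial ribosome factor) 0.94 and 0.18, AMDHD2 0.88 and 0.40, and CD46 (a complement regulator) 0.85 and 0.13. Among the lower ones, HSPA4, a chaperone of the HSP110 family, had 31.8 and 36.1 CPM with SP2509 against 48.0 to 80.6 CPM in the reference and 43.2 to 73.8 CPM with the second-well compounds. Its log2 fold changes were -0.92 ± 0.22 (adjusted p = 0.0123) and -0.77 ± 0.24 (adjusted p = 0.967). USP39 and PRPF19, both spliceosome proteins, had -0.91 and -0.93 against the reference and -0.69 and -0.63 against the second-well compounds. CDC42, a small GTPase, had -0.88 and -0.62, and DAD1, a subunit of the oligosaccharyltransferase, -0.93 and -0.30. The other 4 named lower genes, RPL21P11, SUMO2P1, RPL27AP and ATP5F1CP1, are pseudogene copies and uncertain. No member of either direction passed against the second-well compounds, and the calls of SP2509 against the reference went to 0 when either of its wells was left out.

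The direct comparison of the compounds, 1 pair at doses the labels do not give, called 8 genes (0.0776%), all of them lower with SP2509. With any 1 of the 4 wells left out, the log2 difference of GFI1B stayed between -1.80 and -1.72. Each of the 8 genes other than GFI1B and PI16 lost its call in at least 1 of these cases. PI16 entered the test through the GSK-LSD1 wells alone, so its call is not given as support. The comparison uses no control wells and sets 2 wells of 1 row place against 2 of the same place. The log2 difference of SP2509 minus GSK-LSD1 was -1.76 ± 0.19 for GFI1B (adjusted p = 3.15e-13), with a 95% interval of -2.13 to -1.39. It was -0.84 ± 0.16 for VIM (adjusted p = 0.00222) and -1.14 ± 0.25 for HHEX (adjusted p = 0.0176). For RNASE1 it was -1.63 ± 0.37 (adjusted p = 0.0304). PI16 had 63 counts against 0, and DESeq2 did not call it (adjusted p = 0.989). APOC1 had 425 and 380 CPM with SP2509 (-0.55 ± 0.12, adjusted p = 0.0153). VMP1 had 133 and 175 CPM with SP2509 (-0.89 ± 0.20, adjusted p = 0.026). PDRG1 had 114 and 165 CPM with GSK-LSD1 and 76.1 and 75.6 CPM with SP2509 (-0.85 ± 0.20, adjusted p = 0.0442). Most of these calls depended on the processing. Of 14 alternatives, GFI1B kept its call in 14, VIM in 10, HHEX and APOC1 in 6, VMP1 in 4, and RNASE1 and PDRG1 in 2. HHEX lost its call with limma-voom (adjusted p = 0.0662), DESeq2 (0.292), library size alone (0.0777) and ERCC scaling (0.334). For 6 of the 8 genes both SP2509 wells lay within the range of the reference wells. For RNASE1 and APOC1, 1 of the 2 SP2509 wells lay below it. The share of all genes with both SP2509 wells inside that range was not counted.

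**Figure D4:**
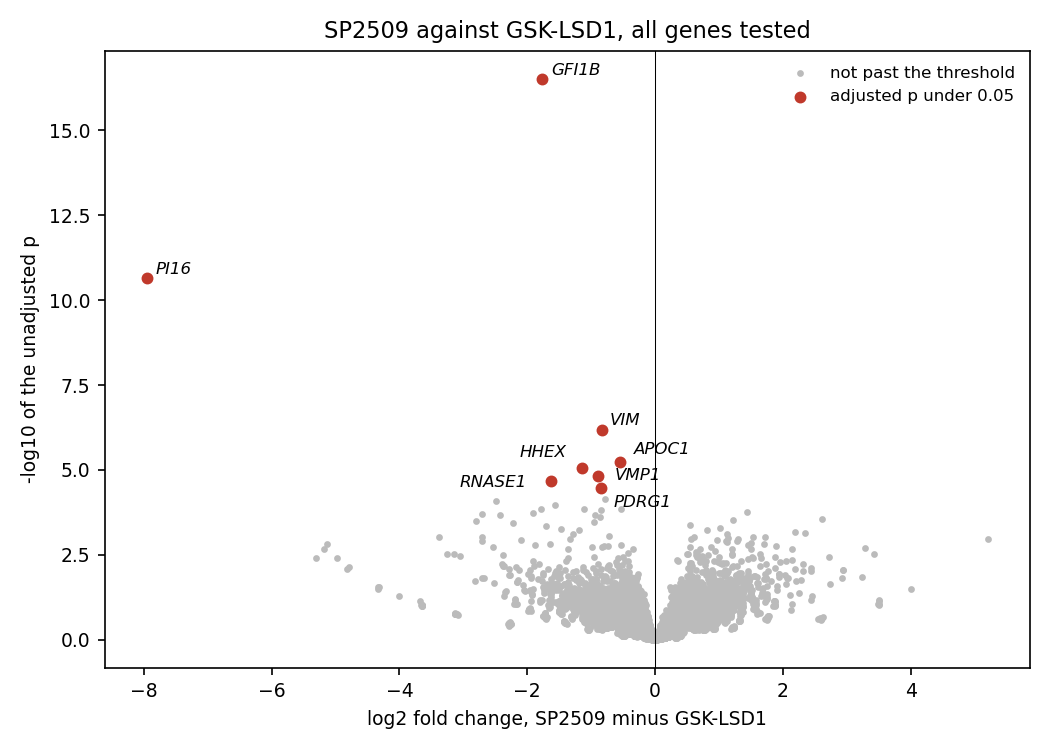
Log2 fold change of SP2509 minus GSK-LSD1 (horizontal) against −log10 of the unadjusted p (vertical) for all 10312 genes tested. Red points are the 8 genes past the threshold, all on the side of lower levels with SP2509, and GFI1B stands highest.

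No gene was called higher with SP2509 than with GSK-LSD1. The smallest p values in that direction belonged to PNISR, a splicing-related protein gene with 51.3 and 55.0 CPM against 21.84 and 23.96 CPM (log2 difference 1.21 ± 0.33, adjusted p = 0.13), to UBAC1 (0.54 ± 0.15, adjusted p = 0.162) and to CISH, a STAT5-induced feedback inhibitor of cytokine signals (1.02 ± 0.29, adjusted p = 0.177). In all, 752 genes had an unadjusted p under 0.05. The median half-width of the 95% interval, not adjusted for the number of genes, was 0.85. For a typical gene even a larger log2 difference could miss the threshold. The intervals were narrow for abundant genes: HBG2 differed by -0.04 (95% interval -0.25 to 0.17) and HBG1 by -0.08 (-0.30 to 0.13). KDM1A differed by 0.38 (-0.31 to 1.07), MYC by 0.32 (-0.03 to 0.67) and KLF1 by 0.51 (0.18 to 0.84, adjusted p = 0.363).

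The mRNA of the target, KDM1A, did not pass the test for either compound. It had 27.59 and 20.96 CPM with GSK-LSD1, 30.1 and 34.4 CPM with SP2509 and 22.4 to 37.5 CPM (median 28.7) in the reference. The GSK-LSD1 wells straddled the lower end of the reference and the SP2509 wells lay inside it, with log2 fold changes of -0.21 ± 0.25 and 0.17 ± 0.26 (adjusted p = 0.797 and 0.822). RCOR1, the scaffold, had 6.90 and 11.98 CPM with GSK-LSD1 and 15.9 and 8.59 CPM with SP2509. Of 30 genes of LSD1 and its complexes, 25 were tested and 0 were called for either compound against the reference or the second-well compounds. Over all genes, 1.6% were called for GSK-LSD1 and 2.02% for SP2509 against the reference, and 0.194% and 0% against the second-well compounds. At these shares, 0 calls among 25 genes do not set the list apart. Their median log2 fold change against the second-well compounds was -0.23 for GSK-LSD1 and 0.03 for SP2509, beside 0.03 and 0.02 over all genes. An inhibitor acts on the protein, and neither the protein nor its activity was measured.

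Of 24 genes for SNAG-domain factors and other recruiters of LSD1, 6 were tested. GFI1B was the only call for GSK-LSD1 against the reference and against the second-well compounds, where 1.6% and 0.194% of all genes were called. With SP2509, 0 of the 6 were called against these controls, where 2.02% and 0% of all genes were called. GFI1, the paralogue of GFI1B, was nearly silent in these cells, with 2 counts in 1 GSK-LSD1 well and 0 in the other and in both SP2509 wells. A list of 46 genes reported to be repressed by GFI1-family factors or LSD1 had 17 members at a level that could be tested. With GSK-LSD1, 3 of the 17 rose against the reference (GFI1B, HHEX and ID3) and 0 fell, where 1.16% and 0.436% of all genes did, and against the second-well compounds 3 rose (GFI1B, SPI1 and HHEX) and 1 fell (ID1), where 0.155% and 0.0388% of all genes did. The median log2 fold change of the 17 was 0.45 and 0.63, beside 0.02 and 0.03 over all genes. With SP2509, 0 were called with either control and the medians were -0.12 and -0.11. Against DMSO 5 rose with GSK-LSD1 and 2 with SP2509, and 6 of the 17 were higher in the reference than in DMSO. The same counts over all 10312 genes were 142, 152 and 473. The list was drawn up with earlier results of these data known, and members that passed the filter may have done so through the wells where they were high.

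**Figure D5:**
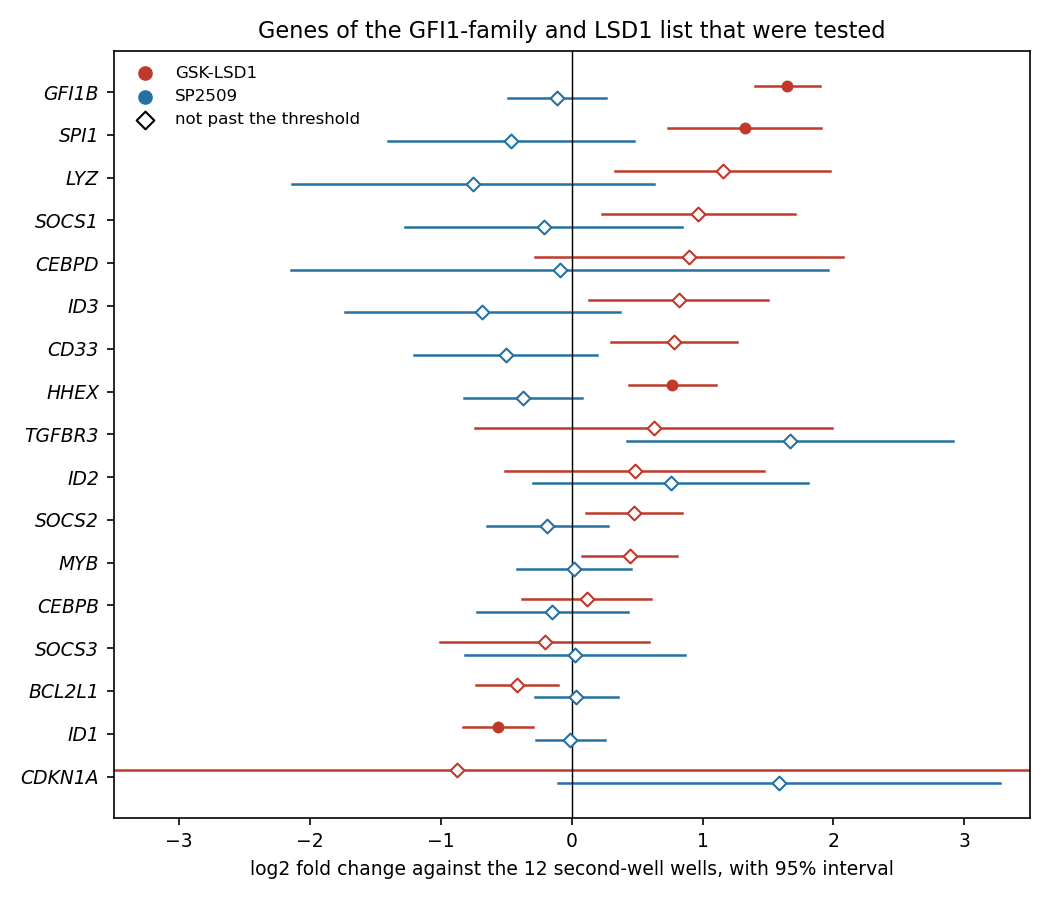
Log2 fold change against the second-well compounds (horizontal, with 95% intervals) of the 17 tested genes of the list for GSK-LSD1 and SP2509. Filled circles passed the threshold, which for GSK-LSD1 were GFI1B, SPI1, HHEX and ID1 and for SP2509 none; the CDKN1A interval runs beyond the axis.

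Several members that did not pass against the second-well compounds had higher values with GSK-LSD1 than with SP2509 in both wells. Of the 17 members, 6 went the other way, with a log2 difference of SP2509 minus GSK-LSD1 above 0. CD33, a surface receptor of myeloid cells, had 37.9 and 38.9 CPM with GSK-LSD1 and 17.7 and 13.7 CPM with SP2509, beside 6.57 to 40.4 CPM (median 24.2) with the second-well compounds. Its log2 fold change for GSK-LSD1 was 0.78 ± 0.24 (adjusted p = 0.207). LYZ, the lysozyme of myeloid cells, had 13.8 and 13.5 CPM with GSK-LSD1 and 3.54 and 3.44 CPM with SP2509, but 0 to 12.7 CPM with the second-well compounds. Of 24 myeloid markers 2 could be tested, and both were called lower with the second-well compounds than in the reference, as were 1139 of all genes. SOCS2, a STAT5-induced inhibitor of cytokine signals, had 68.97 and 56.89 CPM against 35.4 and 44.7 CPM. ID3, of the same family as ID1, had 13.8 and 22.5 CPM with GSK-LSD1 against 2.73 to 11.7 CPM in the reference (log2 fold change 1.41 ± 0.35, adjusted p = 0.00902) and 5.24 to 20.97 CPM with the second-well compounds (0.82 ± 0.35, adjusted p = 0.436). CD86 and ITGAM, surface markers often used to follow LSD1 inhibition in myeloid leukaemia cells, had 0 counts in all 4 wells.

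Markers of other lineages were compared as sums. The 7 myeloid markers summed to 14.9 and 16.5 CPM in the GSK-LSD1 wells, 3.44 and 3.54 CPM in the SP2509 wells and 3.64 to 20.6 CPM in the reference. Of these 7, 3 were at 0 in both GSK-LSD1 wells and 6 in both SP2509 wells. The SP2509 sums came from LYZ alone and the GSK-LSD1 sums mostly from LYZ, so these sums repeat the LYZ values given above. The 7 megakaryocyte markers summed to 2.30 to 4.49 CPM with GSK-LSD1 and 8.59 to 8.85 CPM with SP2509, within or just above the reference range of 0 to 8.35 CPM. The 6 lymphoid markers summed to 58.4 to 70.1 CPM with GSK-LSD1 and 77.3 to 92.0 CPM with SP2509, beside 62.2 to 110.9 CPM in the reference. The 12 erythroid markers summed to 27793 to 30949 CPM, 27990 to 29319 CPM and 29812 to 33473 CPM with GSK-LSD1, with SP2509 and in the reference. In bulk RNA, fewer cells of a type and less RNA per cell cannot be told apart.

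Of 13 tested erythroid transcription factors, GFI1B rose and KLF1 fell with GSK-LSD1, and 0 were called with SP2509, against the reference and against the second-well compounds alike. Over all genes these comparisons called 1.6%, 2.02%, 0.194% and 0%. Against DMSO 5 of the 13 rose with GSK-LSD1 (GFI1B, GATA1, NFE2, LMO2 and MYB) and 6 with SP2509, and 10 of the 13 were higher in the reference than in DMSO. Over all 10312 genes, 142 rose with GSK-LSD1 and 152 with SP2509 against DMSO, and 473 were higher in the reference than in DMSO. GATA1, the central erythroid factor, had 360 and 439 CPM with GSK-LSD1, 545 and 435 CPM with SP2509, 328 to 464 CPM in the reference and 422 to 623 CPM with the second-well compounds. The fetal globin gene HBG1 had 7870.4 and 7245 CPM with GSK-LSD1 and 7287 and 6979 CPM with SP2509, against 7541 to 8589 CPM in the reference, and was not called (log2 fold change -0.09 ± 0.08 and -0.17 ± 0.08, adjusted p = 0.728 and 0.289). HBA1, an adult alpha globin gene, had 835 and 764 CPM with GSK-LSD1, 948 and 821 CPM with SP2509, 747 to 893 CPM with the second-well compounds and 1130.3 to 1350.1 CPM in the reference. HBA1 and HBA2 were both called lower against the reference with both compounds, and neither was against the second-well compounds (HBA1 -0.63 and -0.49, then -0.05 and 0.10). HBA1 and HBA2, and HBG1 and HBG2, are near-identical pairs whose reads can be shared, so single values are uncertain. TFRC, the transferrin receptor, rose by 0.76 on the log2 scale with SP2509 against the reference, and against the second-well compounds it had 0.10 (adjusted p = 1).

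Other gene groups are set beside 1.6% of all genes called for GSK-LSD1 and 2.02% for SP2509 against the reference. With GSK-LSD1 against the reference, of 26 tested immediate early genes ID3, HES1 and PIM1 rose, and of 15 tested p53 targets TP53I3 and AEN rose. Of 21 tested NRF2 response genes PRDX1 and FTL rose and SQSTM1 fell, and of 17 tested histone genes H1-2 fell. Against the second-well compounds, PIM1 was the one of these 9 genes that passed. With SP2509 against the reference, FOSL1 rose and TXN, BAX, H1-2 and the heat shock genes HSP90AB1 and HSPA4 fell, and against the second-well compounds none of these 6 passed. No gene of replication (27 tested) or mitosis (26 tested), of the interferon response (9 tested) or of the unfolded protein and integrated stress response (26 tested) was called for either compound with these controls.

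The depth of the 4 wells was 883707 and 657267 counts for GSK-LSD1 and 545151 and 549913 for SP2509, against 363654 to 749216 for the second-well compounds, 462597 to 1238536 in the reference and 173553 to 1906446 in the whole series. Duplicates differed by more than sampling noise, with a chi-square divided by its degrees of freedom of 1.60 for GSK-LSD1 and 1.13 for SP2509 (p = 2.17e-16 for SP2509; 1.12 to 2.71 over all treatments), and were counted as 2 wells. Scaled by the ERCC spike-ins, the median gene was lower than in the reference by 0.27 for GSK-LSD1 and 0.22 for SP2509 on the log2 scale, and the calls became 13 higher and 74 lower, and 0 and 0. Against the second-well compounds the same scaling moved the median gene to 0.00 and 0.03. Scaled by library size alone, the calls of SP2509 against the reference were 176 higher and 105 lower. GFI1B, VIM and KLF1 kept their direction and call for GSK-LSD1 against the reference in all 21 alternatives tried, ERCC scaling included.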

How the data were processed

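The authors deposited 1 table per plate with counts per gene and well, and an annotation that names the compound of each well. The deposited values were labelled expected counts (estimated counts) because some of the summary lines are fractional, although all gene and ERCC lines used here are whole counts. The submitters' processing notes name cutadapt 2.1, FastQC 0.11.6, bcl2fastq 2.17.1.14 and R 4.0.2 and build GRCh37 (hg19). The aligner and the counting step are not given in the sources used for this text. Whether the counts are reads or molecules is not stated. If they are reads, amplified copies count more than once. The 6 summary lines were left out.

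From these counts, genes were kept with filterByExpr (10312 of 57905), scaled with TMM and fitted in edgeR 4.0.16 (R 4.3.3) in 1 model over all 192 wells with a term per treatment and a plate term. The plate term is the replicate block, since same-numbered wells of both plates are the duplicates. Contrasts used the quasi-likelihood test. P values were adjusted by the Benjamini-Hochberg method over all genes of a comparison, and 0.05 was the threshold. SE is the log2 fold change divided by the root of F. CPM are counts divided by the TMM-scaled library size. The intervals of count ratios and the floors cover counting error only; those of log2 differences come from the model and include the spread between wells. limma 3.58.1 (voom) and DESeq2 1.42.0 were alternatives, as were other scalings, filters, controls and leaving out wells or compounds. The test was tried on simulated data.

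Genes named are, per comparison and direction, the 10 of largest change among those called whose mean log2 CPM reached 5 and whose sign was equal on both plates (the 3 smallest p where fewer than 3 passed), up to 4 called members of each list, and KDM1A, RCOR1, GFI1B, GFI1, HBG1, HBG2, HBZ, HBE1, CD86, ITGAM, MYC and GAPDH; some genes the rule names for SP2509 are not reported here. The compounds, the reference and the gene lists were chosen with earlier results of these data known. Symbols were looked up by Ensembl identifier, and 9689 of the genes tested had one.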

Additional observations from a re-analysis of the deposited data

How the results depend on the processing

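Counts of calls depended on the processing more than the log2 fold changes of GFI1B and VIM did. For GSK-LSD1 against the reference (165 calls), DESeq2 gave 108, ERCC scaling 87, no low-count filter 103, a fit of only the wells compared 79, and leaving out 1 well or 1 reference compound 33 to 166. For SP2509 against the reference (208), DESeq2 gave 100, ERCC scaling 0, no replicate block 85, only the wells compared 20, and leaving out 1 well or compound 0 to 229, with 0 without either SP2509 well. Against DMSO, GSK-LSD1 (180) had 113 with DESeq2, 424 with DMSO wells outside the first well of each row, 29 with ERCC scaling, 110 without filter, 101 with only the wells compared and 40 to 45 with 1 well left out. SP2509 against DMSO (238) had 144, 827 and 26 with the first 3 of these, 138 without the replicate block, 100 with only the wells compared and 19 to 43 with 1 well left out; its split with ERCC scaling was 25 higher and 1 lower, and that of GSK-LSD1 with library size alone 110 higher and 62 lower. The direct comparison (8) had 3 with DESeq2, 5 with DESeq2 size factors, 2 with ERCC scaling, 4 each with library size alone, limma-voom and no replicate block, 3 with only the wells compared and 2 to 5 with 1 well left out. Against the second-well compounds, GSK-LSD1 (20) had 3 with DESeq2, 10 with ERCC scaling, 39 with only the wells compared and 4 to 22 with 1 well or compound left out, the lowest values being 4 and 6 without either GSK-LSD1 well. SP2509 (0) had 1 with DESeq2, 1 without filter, 1 with only the wells compared and 0 to 0 with 1 left out. The causes were not tested, except that leaving out a well leaves 1 well for that compound, which is assumed to vary like the others.

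Over the genes named, 1321 alternative values kept direction and call, 417 kept direction and lost the call, and 1 reversed: FTL for GSK-LSD1 against the reference was -0.067 with ERCC scaling (adjusted p = 0.873). GFI1B kept its call in 21 of 21 alternatives against the reference, 18 of 18 against the second-well compounds and 14 of 14 in the direct comparison, and VIM in 21 of 21, 18 of 18 and 10 of 14. PI16 lost the direct call with DESeq2 (adjusted p = 0.989). Its calls in other alternatives are not given as support, since it entered the test through the GSK-LSD1 wells alone. VIM lost the direct call with ERCC scaling (adjusted p = 0.334). It also lost it without GSK-LSD1 on plate 2 (log2 difference -0.76) or without either SP2509 well (-0.82 and -0.85). HHEX and KLF1 lost their call against the second-well compounds without either GSK-LSD1 well. Without the plate 1 or plate 2 well, the log2 fold change was 0.95 or 0.61 for HHEX and -0.52 or -0.66 for KLF1. Both genes also lost the call with DESeq2 (adjusted p = 0.951 and 0.329) and with ERCC scaling (0.116 and 0.395). KLF1 lost it without the low-count filter as well (adjusted p = 0.0783). Of the 18 alternatives for this control, HHEX, PKM and SPI1 kept their call in 14, KLF1 and PIM1 in 13, and RNASE1 in 15. The depth of 545151 to 883707 counts limits genes of a few CPM.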

Other observations

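Some genes too low for the filter were called for GSK-LSD1 when no filter was used, and are given as counts per well. PLAU, the urokinase gene, had 16 and 6 counts with GSK-LSD1 and 1 and 0 with SP2509. PROCR, the endothelial protein C receptor, had 7 and 6 counts with GSK-LSD1 and 1 and 1 with SP2509. PSMB9, an immunoproteasome subunit, had 6 and 6 counts with GSK-LSD1 and 0 and 1 with SP2509. Of the 16 reference wells, 3 held 0 counts of PLAU, 4 of PROCR and 7 of PSMB9. All 3 genes were called against the reference, and PLAU and PROCR also against the second-well compounds. They were picked after their values were seen, so the adjusted p is left out and their calls are not given as support.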
